A study of Mus musculus with 9 samples.

Results

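The genes of the TGF-beta, BMP and activin pathways were examined in mouse tracheal myoepithelial cells that carry a Lef1 knock-in and in cells that do not. Members were taken by name and not by their values, from a pattern of gene symbols that covers ligands, receptors, extracellular inhibitors, latency proteins, Smads, their regulators and the Id genes. The pattern took 65 of the 13336 genes in the deposited table, of which 64 are protein coding and 1 is a pseudogene, Tgif2-ps2. GENCODE lists 85 protein-coding genes with such names, and the other 21 were not analysed here: Acvr1c, Bambi, Bmp6, Bmp10, Bmp15, Chrdl1, Chrdl2, Fstl4, Fstl5, Gdf1, Gdf2, Gdf3, Gdf7, Gdf9, Inhbc, Inhbe, Smad6, Smad9, Tgfbr3l, Tgif2lx1 and Tgif2lx2.

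The study asks how forced expression of Lef1, a DNA-binding partner of beta-catenin, alters myoepithelial cells, the contractile basal-type cells around airway glands, after expansion in culture. Each library came from tracheal gland cells pooled from 3 to 5 mice that had received tamoxifen on 5 days, grown to passage 1 and sorted by flow cytometry. The Lef1KI group (5 libraries, A to E) came from ACTA2-CreERT2:Lef-1KI+/+ cultures, from which GFP- cells were collected. The WT group (4 libraries, A, B, E and D) came from ACTA2-CreERT2:ROSA-TG cultures, from which GFP+ cells were collected. WT cells thus also carry the inducible Cre, which is driven by the smooth muscle actin promoter, and no group lacks Cre or tamoxifen. The gate differed with the genotype in every library, so effects of Lef1 and of the gate cannot be told apart. Both groups grew in the same medium with 1 µM DMH-1, which blocks BMP type I receptors, 1 µM A83-01, which blocks the TGF-beta and activin type I receptors, 1 µM CHIR 99021, which inhibits GSK3 and so activates beta-catenin, and 10 µM Y-27632, a kinase inhibitor. No culture without the receptor inhibitors was analysed here, so each difference below is one between cells under inhibition.

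TGF-beta family ligands are secreted dimers that bring together type I and type II receptor kinases. TGF-beta and activin receptors phosphorylate Smad2 and Smad3, BMP receptors phosphorylate Smad1 and Smad5, and both sets of Smads enter the nucleus with Smad4. In airway basal cells these pathways favour growth arrest and differentiation, which is why receptor inhibitors are used to expand them. Secreted proteins such as follistatin, noggin and chordin bind ligands and keep them from receptors, and the Id genes are direct transcriptional targets of BMP Smads.

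Promoter sequences are shown for 4 members. Inhba and Gdf10 are the ligands with the largest differences, and Chrd and Tgfbi are the members past the threshold that hold a searched motif in the printed stretch. RefSeq (GRCm38.p6) gave a window from 250 bases before to 50 after the start for 45 of the 65 members, and the stretches below are the bases before the start that lie outside every annotated exon. All are on the plus strand, 5′ to 3′, at chr13:16011601-16011850 (Inhba), chr14:33923337-33923586 (Gdf10), chr16:20732877-20733126 (Chrd) and chr13:56609336-56609522 (Tgfbi), with the GGCGCC motif in capitals.
Inhba: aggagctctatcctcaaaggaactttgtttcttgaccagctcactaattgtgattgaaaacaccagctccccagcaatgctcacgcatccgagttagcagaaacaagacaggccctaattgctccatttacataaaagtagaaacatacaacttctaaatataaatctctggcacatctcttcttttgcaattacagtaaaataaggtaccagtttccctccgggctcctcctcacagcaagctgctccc
Gdf10: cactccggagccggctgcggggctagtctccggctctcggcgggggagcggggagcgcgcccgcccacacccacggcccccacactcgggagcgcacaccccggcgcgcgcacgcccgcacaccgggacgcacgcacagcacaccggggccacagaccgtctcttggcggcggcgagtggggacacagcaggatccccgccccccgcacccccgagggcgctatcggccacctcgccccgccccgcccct
Chrd: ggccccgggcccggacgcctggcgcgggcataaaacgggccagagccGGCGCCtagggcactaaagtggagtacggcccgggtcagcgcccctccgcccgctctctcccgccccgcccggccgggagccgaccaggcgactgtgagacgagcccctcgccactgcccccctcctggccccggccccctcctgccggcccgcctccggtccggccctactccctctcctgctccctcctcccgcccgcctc
Tgfbi: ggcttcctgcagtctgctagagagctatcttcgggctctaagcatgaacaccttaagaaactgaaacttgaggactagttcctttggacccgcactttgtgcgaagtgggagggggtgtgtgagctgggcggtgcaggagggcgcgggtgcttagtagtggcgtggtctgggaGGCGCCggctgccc
The Inhba stretch is 43.2% G and C, against 78.8% for Gdf10, 78.0% for Chrd and 59.4% for Tgfbi. GGCGCC, a GC-rich element bound by Smads, starts 203 bases before the RefSeq start of Chrd and 77 bases before that of Tgfbi, and the 1 of Gdf10 lies in the transcribed part of its window, which is not printed. Over both strands, GGCGCC occurred in the windows of 3 of the 12 members past the threshold that had a window. It occurred in those of 16 of all 45 members (35.6%) and of 13.4% of all 27025 genes with a window. Member windows held a median of 65.3% G and C and all windows 52.7%, and the part of base composition in the difference was not tested. The TCF/LEF forms CTTTGAA (5.93% of genes) and CTTTGAT (4.29%) occurred in 0 and 1 of the 45 members, the 1 being Tgif1, and the Smad palindrome GTCTAGAC (0.248% of genes) occurred in 0.

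Values are TPM, transcript abundance scaled to a common total per library, which adjusts for gene length so that levels can be set between genes, and ± is the SD over libraries (n = 5 Lef1KI, n = 4 WT) throughout. Every difference is the Lef1KI mean minus the WT mean of log2(TPM + 1), a scale that compresses changes of low genes. The words rose and fell stand for a Benjamini-Hochberg adjusted p under 0.05 from limma over all genes. Lef1 had 139 to 312 TPM in the Lef1KI libraries and 0.38 to 0.55 TPM in WT, as labelled. Median log2 values per library lay between 3.58 and 3.97, and 11465 to 12135 genes reached 1 TPM. Of 7 myoepithelial markers none was at 0 throughout a group. Their summed TPM (10800 to 15100 in Lef1KI, 9790 to 11400 in WT) was nearly all Krt14, which basal cells share, and Krt17. The contractile markers were low, with Tagln at 6.84 ± 2.34 against 4.95 ± 3.13 TPM, Myl9 at 10.4 ± 3.65 against 6.08 ± 2.16, Mylk, which rose, at 2.55 ± 0.75 against 1.16 ± 0.41 and Myh11 at 0.74 ± 0.22 against 0.84 ± 0.865. The call of Mylk (limma adjusted p 0.0448) was kept in 2 of the 9 fits that left out 1 library. Acta2, the source of the Cre driver, reached 62.3 ± 31.2 TPM in Lef1KI against 129 ± 41.0 TPM in WT (difference −1.13, limma adjusted p 0.0834). Lef1KI libraries stood apart in markers of other cell types. The summed TPM of 15 stromal markers was 911, 626, 1300, 1072 and 455 in Lef1KI A to E and 110 to 206 in WT, and that of 10 endothelial markers was 37.0, 41.3, 95.5, 112 and 82.0 against 19.9 to 29.9. Libraries C and D held the highest stromal sums, and the results below that rest on them are given without them as well. Such fits do not remove the stromal markers, since Lef1KI A, B and E (911, 626 and 455 TPM) also lay above every WT library. In pooled cells, more cells of a type and more RNA per cell cannot be told apart.

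Of the 65 members, 14 (21.5%) passed the threshold, 12 higher in Lef1KI and 2 lower, where 7.97% of all genes passed, 6.73% higher and 1.24% lower. The raised members included the activin subunit gene Inhba, the BMP-family ligand genes Gdf10, Bmp4 and Gdf11, the receptor gene Tgfbr2, the co-receptor gene Eng, the genes for the secreted modulators Fstl1, Bmper and Chrd, the latency gene Ltbp1 and the target gene Id3. The lowered ones were Tgfbi and the pseudogene Tgif2-ps2. The median difference over all members was 0.12, and that over all genes was 0.14. Of the 65, 54 met the authors' filter (a mean of at least 3 SD) in both groups and 11 in 1 group, and Gdf10, Gdf11 and Tgif2-ps2 met it only in the group where they were higher, which favours a difference. Of the other 51 members, the differences ran from −1.14 to 1.05. The groups did not overlap for 14 members, 12 higher and 2 lower, where 11.9% of all genes had groups that did not overlap. Of these 14, 12 also passed the threshold, and the others were Acvrl1 and Nog. Centring each library on its median moved the median of all genes from 0.14 to −0.02. After centring, 15 members passed, 10 higher and 5 lower, where 4.54% of all genes were higher and 2.49% lower. Of those 15, 12 had also passed on the values as deposited. Without Lef1KI C and D together, 8 members remained, among them Inhba, Gdf10, Tgfbr2, Eng, Fstl1, Bmper and Tgif2-ps2.

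**Figure D1:**
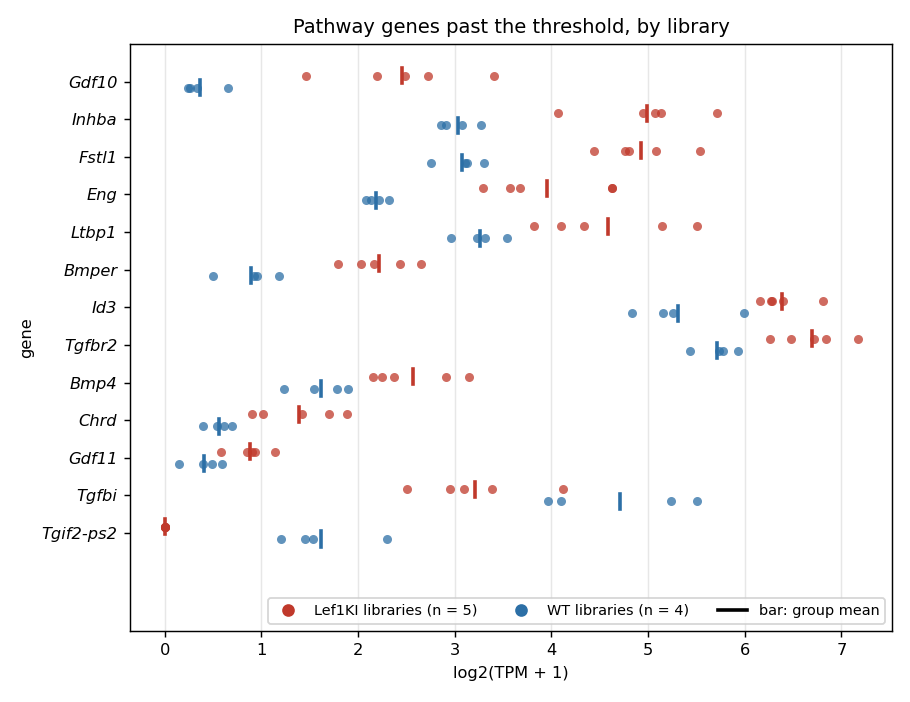
Level of 13 members past the threshold in every library, as log2(TPM + 1) on the horizontal axis, with Lef1KI libraries in red (n = 5), WT libraries in blue (n = 4) and vertical bars at the group means. Lef1KI points lie to the right of all WT points for 10 of the 11 raised genes shown, Gdf11 being the exception, and those of Tgif2-ps2 all lie at 0.

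**Figure D2:**
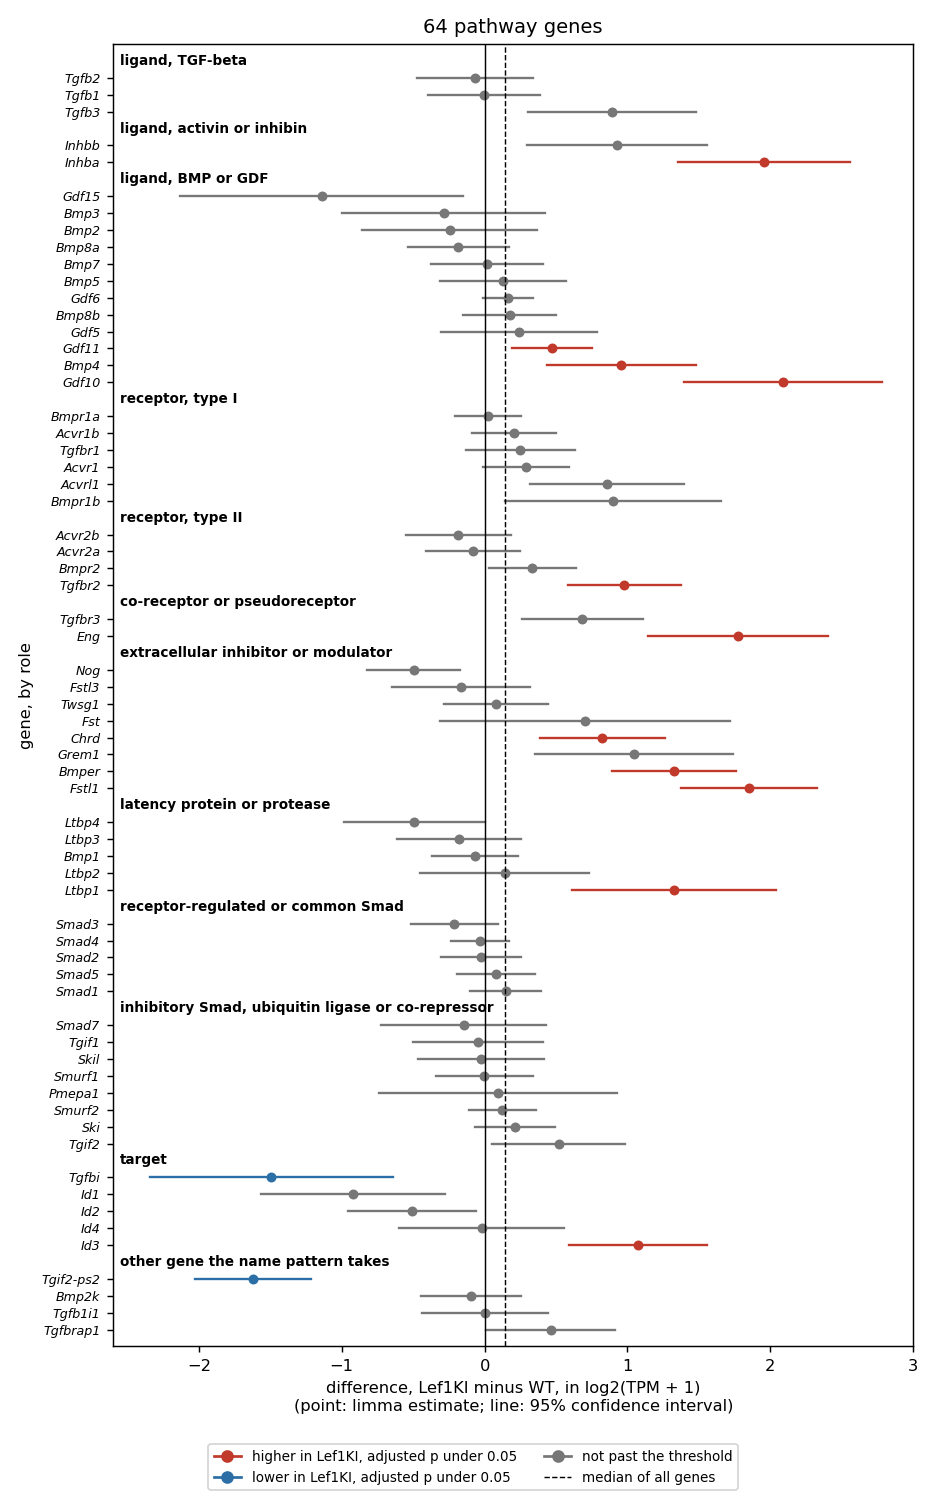
Difference between the groups for 64 of the 65 members in order of role, Lef1KI minus WT in log2(TPM + 1) on the horizontal axis, with points for the limma estimates, lines for 95% confidence intervals, red and blue for genes past the threshold and a dashed line at the median of all genes (0.14). Smads and their regulators lie near 0, while ligands and extracellular modulators spread from −1.14 to 2.09.

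Among the 17 ligand genes, the 3 with the highest levels were the same in both groups, and none of them passed the threshold with all 9 libraries weighted equally. Gdf15, a stress-induced distant member of the family, ranked first with 81.1 ± 62.6 TPM in Lef1KI against 149 ± 37.3 TPM in WT. Lef1KI A, at 183.6 TPM, lay above every WT library while the other Lef1KI libraries held 30.6 to 96.6 TPM, so the groups overlapped (difference −1.14, limma adjusted p 0.157). Without Lef1KI A the gene passed as lower (−1.51, limma adjusted p 0.0192), as it did with sample quality weights (−1.44, 0.013). It did not pass in any other fit without a library. Without Lef1KI C and D, where Gdf15 was lowest, its difference was −0.55 (limma adjusted p 0.545). Bmp7, an epithelial BMP, had 36.8 ± 7.95 TPM in Lef1KI against 36.1 ± 6.18 TPM in WT (difference 0.02, 95% interval −0.37 to 0.41). Tgfb1, the principal TGF-beta isoform of epithelium and leukocytes, had 34.7 ± 6.16 TPM in Lef1KI against 35.0 ± 8.1 TPM in WT (difference −0.005, 95% interval −0.40 to 0.39). Tgfb2 had 8.4 ± 1.33 TPM in Lef1KI against 8.91 ± 1.94 TPM in WT (difference −0.07). The third isoform, Tgfb3, was higher in 4 of 5 Lef1KI libraries than in every WT library (5.05 ± 2.19 against 2.19 ± 0.89 TPM, difference 0.89, limma adjusted p 0.0695) without passing, and passed when Lef1KI E was left out and with sample quality weights (0.85, limma adjusted p 0.0318). Without Lef1KI C and D, where Tgfb3 was highest, its difference was 0.57 (limma adjusted p 0.272). The summed TPM of the 3 isoforms was 48.1 ± 6.68 in Lef1KI and 46.1 ± 8.89 in WT.

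Inhba was the only 1 of the 8 ligand genes with the highest WT levels to pass. It encodes the beta A subunit, a dimer of which is activin A (chromosome 13, 16011851 to 16031621, plus strand of mm10). Its levels were 15.8, 29.9, 51.3, 34.0 and 32.7 TPM in Lef1KI A to E against 6.53, 7.46, 6.26 and 8.64 TPM in WT A, B, E and D. Every Lef1KI library lay above every WT library, and library C was the highest. The means were 32.7 ± 12.7 TPM in Lef1KI against 7.22 ± 1.08 TPM in WT, a ratio of 4.53, and the difference was 1.96 (SE 0.27, limma adjusted p 0.00195). Inhba ranked 8th of the 17 ligand genes in WT and 4th in Lef1KI. It passed in each of the 9 fits that left out 1 library and without Lef1KI C and D (difference 1.67). Inhbb, the beta B subunit gene, had 40.9, 20.8, 25.4, 24.5 and 12.8 TPM in the Lef1KI libraries against 8.12, 12.9, 14.9 and 12.2 TPM in the WT ones. Lef1KI E fell within the WT range and the difference of 0.93 did not pass (limma adjusted p 0.0754). It passed once Lef1KI E was left out (1.13, limma adjusted p 0.016) and with sample quality weights (0.76, 0.0271). It did not pass in any other fit without a library, after median centring (limma adjusted p 0.153) or without Lef1KI C and D (0.293). Summed, the activin subunit genes held 45.5 to 76.7 TPM in Lef1KI and 14.6 to 21.2 TPM in WT. Follistatin and follistatin-like 3, the secreted proteins that trap activin, did not pass: Fst had 30.1 ± 17.7 TPM in Lef1KI against 17.9 ± 9.74 TPM in WT (limma adjusted p 0.369) and Fstl3 had 15.6 ± 3.93 TPM in Lef1KI against 17.4 ± 4.36 TPM in WT (limma adjusted p 0.666). Their summed levels were 45.7 ± 20.2 TPM and 35.4 ± 12.5 TPM and overlapped. The 95% interval of the Fst difference ran from −0.31 to 1.72.

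**Figure D3:**
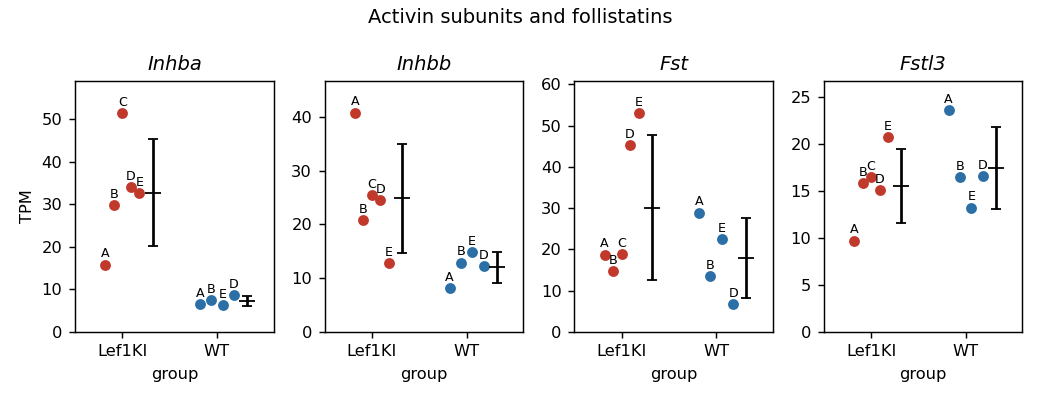
Level of the activin subunit genes Inhba and Inhbb and of the trap genes Fst and Fstl3 in TPM on the vertical axis, by group, with 1 lettered point per library and bars for mean ± SD. Lef1KI libraries lie above all WT libraries for Inhba (15.8 to 51.3 against 6.26 to 8.64 TPM) and overlap them for the other genes.

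Of the 12 BMP and GDF ligand genes, 3 rose and none fell, where 6.73% of all genes rose. Of the 3, Gdf10 and Gdf11 met the authors' filter only in the Lef1KI group, where they were higher. Gdf10, also called Bmp3b (chromosome 14, 33923587 to 33937983, plus strand of mm10), ranked 15th of the ligands in WT and 11th in Lef1KI. It had 4.63, 5.6, 3.59, 9.62 and 1.76 TPM in the Lef1KI libraries against 0.2, 0.18, 0.26 and 0.57 TPM in the WT ones, without overlap (difference 2.09, SE 0.31, limma adjusted p 0.00293). The WT level was under 1 TPM in each library. Bmp4, a mesenchymal BMP of the developing airway (chromosome 14, 46383520 to 46390669, minus strand of mm10), had 3.46, 3.77, 7.86, 6.53 and 4.17 TPM in the Lef1KI libraries against 1.34, 2.74, 1.9 and 2.43 TPM in the WT ones. Its groups did not overlap, and libraries C and D were the highest (difference 0.96, SE 0.24, limma adjusted p 0.0318). Bmp4 lost the threshold without Lef1KI C, without Lef1KI D and without any 1 of the 4 WT libraries, and without C and D together the difference was 0.65 (limma adjusted p 0.124). Gdf11, a ligand of activin receptors (chromosome 10, 128882295 to 128891718, minus strand of mm10), lay at 0.8, 0.5, 1.21, 0.86 and 0.9 TPM in the Lef1KI libraries against 0.4, 0.51, 0.11 and 0.32 TPM in the WT ones. Lef1KI B lay under WT B, the difference was 0.47 (SE 0.13, limma adjusted p 0.048), and only 1 of the 9 fits without a library kept it. Median centring also ended the call of Gdf11 (limma adjusted p 0.193). Bmp2, Bmp3, Bmp5, Bmp8a, Bmp8b, Gdf5 and Gdf6 had differences between −0.29 and 0.24 and none passed, with Bmp8b and Gdf6 under 1 TPM in every library. Bmp8a and Bmp8b are near-identical copies between which reads may have been split.

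Of 10 receptor genes 1 passed, near the share over all genes (7.97%). Tgfbr2, the type II receptor that binds TGF-beta (chromosome 9, 116084293 to 116175360, minus strand of mm10), was the most abundant receptor gene in both groups and rose in Lef1KI. Its levels were 88.2, 75.4, 143, 114 and 105 TPM in the Lef1KI libraries against 42.0, 54.0, 52.0 and 60.0 TPM in the WT ones. The lowest Lef1KI library, B, lay above the highest WT library, D. The means were 105 ± 25.9 TPM in Lef1KI against 52.0 ± 7.5 TPM in WT, a ratio of 2.02, with a difference of 0.98 (SE 0.18, limma adjusted p 0.00788), and each of the 9 fits without a library kept the call. No type I receptor passed in limma, although 2 of the 6, Acvrl1 and Bmpr1b, had an unadjusted p under 0.05. All 6 had differences above 0, as did 9281 of the 13336 genes. After median centring that of Bmpr1a was −0.13 and the others stayed above 0. Of the type I receptors named as targets of the culture's inhibitors, Bmpr1a had 38.6 ± 2.41 TPM in Lef1KI against 38.0 ± 3.27 TPM in WT (difference 0.03, 95% interval −0.21 to 0.26). Acvr1, the other widely expressed BMP type I receptor, had 24.2 ± 3.03 TPM in Lef1KI against 19.6 ± 2.23 TPM in WT (difference 0.29, 95% interval −0.01 to 0.59). Tgfbr1, the type I partner of Tgfbr2, had 10.5 ± 1.24 TPM in Lef1KI against 8.78 ± 1.9 TPM in WT (difference 0.25, 95% interval −0.13 to 0.63). Acvr1b, the activin type I receptor, had 20.0 ± 1.66 TPM in Lef1KI against 17.3 ± 2.46 TPM in WT (difference 0.21, 95% interval −0.09 to 0.50). Acvrl1, a type I receptor best known from endothelium, had 7.43, 7.86, 15.4, 12.1 and 7.85 TPM in the Lef1KI libraries against 3.67, 3.99, 6.24 and 6.28 TPM in the WT ones. These did not overlap, but the difference of 0.86 (95% interval 0.32 to 1.4) did not pass (limma adjusted p 0.0577). It passed when Lef1KI A was left out and with sample quality weights (0.75, limma adjusted p 0.0363). Without Lef1KI C and D, where Acvrl1 was highest, its difference was 0.56 (limma adjusted p 0.256). Bmpr1b, a BMP type I receptor, was the lowest receptor gene in WT and had 2.77 ± 1.87 TPM in Lef1KI against 0.84 ± 0.356 TPM in WT (difference 0.90, 95% interval 0.14 to 1.65, limma adjusted p 0.144), and it passed without Lef1KI B. The type II receptor genes Bmpr2 (13.4 ± 0.791 TPM in Lef1KI against 10.5 ± 1.49 TPM in WT, limma adjusted p 0.17), Acvr2a and Acvr2b did not pass.

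Eng, the gene for endoglin, a co-receptor of TGF-beta and BMP ligands known from endothelial and stromal cells (chromosome 2, 32646595 to 32682669, plus strand of mm10), rose. It had 10.9, 8.8, 23.8, 23.7 and 11.8 TPM in the Lef1KI libraries against 3.99, 3.38, 3.66 and 3.22 TPM in the WT ones. The Lef1KI values fell into a higher pair, C and D, and a lower trio, all above WT. The means were 15.8 ± 7.35 TPM in Lef1KI against 3.56 ± 0.338 TPM in WT (difference 1.77, SE 0.29, limma adjusted p 0.00398). Without C and D the difference was 1.33 (limma adjusted p 0.00609). The summed endothelial markers were also highest in C and D (95.5 and 112 TPM), but E held 82.0 TPM. Cdh5, the endothelial cadherin, had 3.57, 4.15, 12.8, 16.4 and 8.15 TPM in Lef1KI A to E and 0.25 to 1.70 TPM in WT. Emcn had 2.70, 2.61, 10.7, 10.2 and 10.0 TPM in Lef1KI A to E, and Flt1, which did not pass, was highest in Lef1KI B, at 2.29 TPM. Of the 10 endothelial markers measured, 6 rose and none fell. Each of the 6, Cdh5 and Emcn among them, was highest in Lef1KI C and D, as Eng was. The part of the endothelial markers in the level of Eng was not tested. The other co-receptor, Tgfbr3 (betaglycan), had 27.3 ± 6.3 TPM in Lef1KI against 16.2 ± 1.84 TPM in WT and did not pass (difference 0.68, limma adjusted p 0.054). It passed without Lef1KI E, its lowest Lef1KI library (0.85, limma adjusted p 0.00282), with sample quality weights (0.79, 0.00378) and with a pseudocount of 0.1 TPM (0.71, 0.0495). It did not pass in any other fit without a library, after median centring (limma adjusted p 0.181) or without Lef1KI C and D (0.274).

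Of 9 extracellular modulators, 4 rose and none fell, where 6.73% of all genes rose. Fstl1, a secreted follistatin-related glycoprotein (chromosome 16, 37776873 to 37836514, plus strand of mm10), had 26.8, 20.7, 45.5, 32.9 and 26.1 TPM in the Lef1KI libraries against 5.79, 8.82, 7.76 and 7.66 TPM in the WT ones. The groups lay far apart, and library C was again the highest. The means were 30.4 ± 9.47 TPM in Lef1KI against 7.51 ± 1.26 TPM in WT, a ratio of 4.05, with a difference of 1.85 (SE 0.22, limma adjusted p 0.000911). Bmper, a secreted BMP-binding protein (chromosome 9, 23223076 to 23485200, plus strand of mm10), had 4.38, 2.46, 5.29, 3.51 and 3.07 TPM in the Lef1KI libraries against 0.41, 1.26, 0.95 and 0.89 TPM in the WT ones. The groups of Fstl1 and of Bmper did not overlap, and both genes passed in all 9 fits without a library (Bmper difference 1.33, SE 0.20, limma adjusted p 0.00281). Chrd, the gene for the BMP antagonist chordin (chromosome 16, 20733127 to 20742384, plus strand of mm10) whose promoter is printed above, had 2.25, 1.03, 2.7, 1.68 and 0.87 TPM in the Lef1KI libraries against 0.32, 0.62, 0.45 and 0.53 TPM in the WT ones. Its groups did not overlap (difference 0.83, SE 0.20, limma adjusted p 0.0277), but only 4 of the 9 fits without a library kept the call, those without Lef1KI A, B, C or E. Median centring also ended it (limma adjusted p 0.0739), as did leaving out C and D together (0.124).

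The other 5 modulators, Fst and Fstl3 among them, did not pass. Nog, the gene for the BMP antagonist noggin, had 1.54, 1.92, 0.93, 1.34 and 1.39 TPM in the Lef1KI libraries against 1.97, 3.07, 2.23 and 2.39 TPM in the WT ones. All Lef1KI libraries lay below all WT libraries, yet the difference of −0.50 did not pass (limma adjusted p 0.0668). It did pass after median centring (difference −0.66, limma adjusted p 0.0381), after trimmed-mean scaling (0.0393) and with sample quality weights (0.0417). It did not pass in any fit without a library or without Lef1KI C and D together (limma adjusted p 0.295). Grem1, a BMP antagonist of stromal cells, had 9.65 ± 3.47 TPM in Lef1KI against 4.35 ± 2.57 TPM in WT (difference 1.05, limma adjusted p 0.0708) and passed without WT B. Twsg1, a chordin cofactor and the most abundant modulator, had 81.3 ± 14.6 TPM in Lef1KI against 76.8 ± 14.5 TPM in WT (difference 0.08, 95% interval −0.28 to 0.44).

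Among the latency proteins and proteases, Ltbp1 rose and the other 4 genes did not pass, where 6.73% of all genes rose. Ltbp1 (chromosome 17, 75005568 to 75392512, plus strand of mm10) encodes a matrix protein that holds latent TGF-beta. It had 16.2, 13.2, 44.6, 34.4 and 19.3 TPM in the Lef1KI libraries against 10.6, 8.91, 6.76 and 8.38 TPM in the WT ones, without overlap. As for Eng, C and D were well above the other Lef1KI libraries. The difference was 1.33 (SE 0.32, limma adjusted p 0.0307). The call was lost without Lef1KI D and without WT B, E or D, and without C and D together the difference was 0.83 (limma adjusted p 0.0676). Ltbp4, the most abundant of the family, had 49.1 ± 15.1 TPM in Lef1KI against 67.8 ± 12.8 TPM in WT (difference −0.49, limma adjusted p 0.21), and Ltbp3 had 24.0 ± 4.61 TPM in Lef1KI against 27.5 ± 6.83 TPM in WT (difference −0.18). Bmp1, which encodes a protease that cleaves procollagen and chordin, had 19.0 ± 2.58 TPM in Lef1KI against 19.9 ± 1.78 TPM in WT (difference −0.07).

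**Figure D4:**
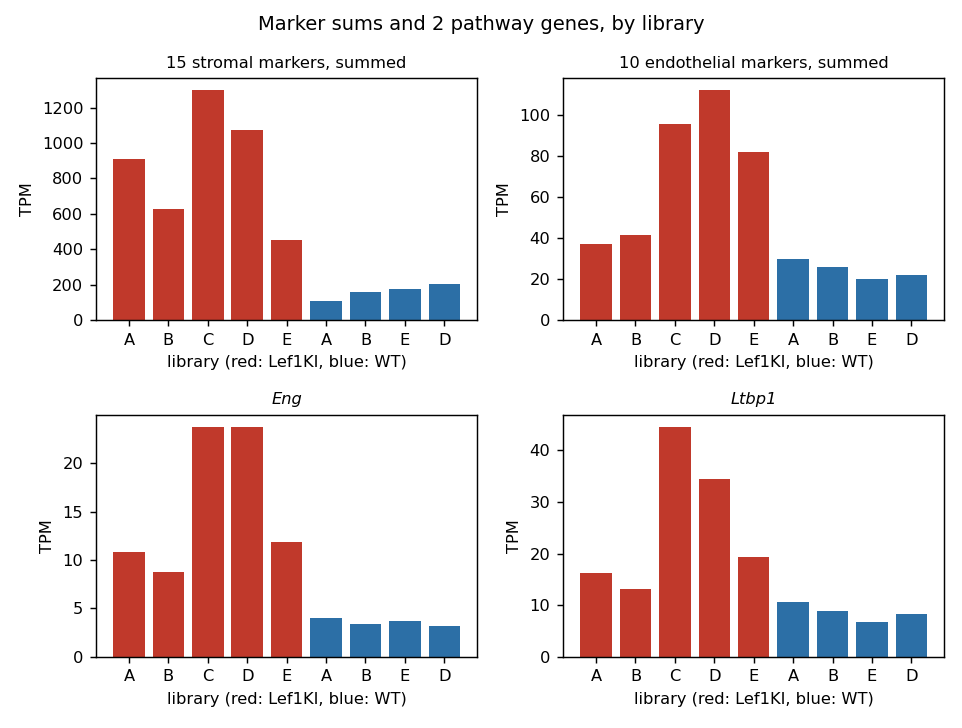
Summed TPM of 15 stromal and of 10 endothelial markers, and TPM of Eng and Ltbp1, as bars per library on vertical axes that start at 0, with Lef1KI in red and WT in blue. Lef1KI C and D hold the highest stromal and endothelial sums and the highest levels of Eng (23.8 and 23.7 TPM) and Ltbp1 (44.6 and 34.4 TPM).

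None of the 5 receptor-regulated and common Smads and none of the 8 inhibitory Smad, ubiquitin ligase and co-repressor genes passed in limma, 1 of the 13 (Tgif2) had an unadjusted p under 0.05, and all 13 had a 95% interval inside 1 log2 unit of 0. Smad4, the common Smad, had 59.2 ± 3.19 TPM in Lef1KI against 60.7 ± 3.24 TPM in WT (difference −0.04, 95% interval −0.24 to 0.17). Smad2 had 39.9 ± 4.8 TPM in Lef1KI against 40.6 ± 4.47 TPM in WT (difference −0.03). Smad1, Smad3 and Smad5 had differences between −0.21 and 0.15. Smad7 and Skil, feedback inhibitors that TGF-beta Smads induce, had 8.02 ± 3.2 TPM in Lef1KI against 8.8 ± 2.5 TPM in WT and 12.4 ± 2.35 TPM in Lef1KI against 12.6 ± 2.91 TPM in WT (differences −0.15 and −0.02). Pmepa1, another induced inhibitor, was low and scattered, from 0.75 to 2.81 TPM in Lef1KI and from 0.36 to 5.10 TPM in WT (difference 0.10). Tgif1, a co-repressor of Smads, was the most abundant of these regulators at 153 ± 40.8 TPM in Lef1KI against 157 ± 33.9 TPM in WT (difference −0.05). Smurf1, a ubiquitin ligase for Smads and receptors, had 31.4 ± 5.58 TPM in Lef1KI against 31.2 ± 3.81 TPM in WT (difference −0.002).

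Of the 4 Id genes, which encode inhibitors of bHLH transcription factors, Id3 alone passed, where 7.97% of all genes passed. Id3 (chromosome 4, 136143497 to 136145755, plus strand of mm10) had 76.0, 70.5, 111, 76.7 and 83.6 TPM in the Lef1KI libraries against 27.4, 62.8, 34.8 and 37.2 TPM in the WT ones. All Lef1KI libraries were above WT B, the highest of the WT libraries (means 83.6 ± 16.2 TPM in Lef1KI against 40.6 ± 15.4 TPM in WT, difference 1.07, SE 0.22, limma adjusted p 0.0128). The call held in all 9 fits without a library but not without C and D together (difference 0.97, limma adjusted p 0.0788). Id1 had 20.3, 21.2, 11.6, 32.6 and 18.9 TPM in the Lef1KI libraries against 22.9, 54.9, 41.0 and 42.7 TPM in the WT ones. Here 4 of the 5 Lef1KI libraries lay below every WT library and Lef1KI D lay above WT A, and the difference of −0.92 did not pass (limma adjusted p 0.0847). It did pass after median centring (−1.08, limma adjusted p 0.0462), with sample quality weights (−1.05, 0.0118), without Lef1KI D (−1.09, 0.0467) and without WT A (−1.16, 0.0309). Id2 was similar, at 5.12 ± 0.369 TPM in Lef1KI against 7.99 ± 2.73 TPM in WT (difference −0.51, limma adjusted p 0.164, and −0.67 with 0.0428 after centring). Id4 showed 4.2 ± 1.26 TPM in Lef1KI against 4.41 ± 1.89 TPM in WT (difference −0.02). Within each library, the ratio of Id3 to Id1 was 3.74, 3.32, 9.63, 2.35 and 4.41 in Lef1KI A to E and 1.20, 1.14, 0.849 and 0.872 in WT, which is a description chosen after the values were seen. Summed over the 4 Id genes, the levels overlapped, at 114 ± 13.4 TPM in Lef1KI and 93.3 ± 30.5 TPM in WT.

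**Figure D5:**
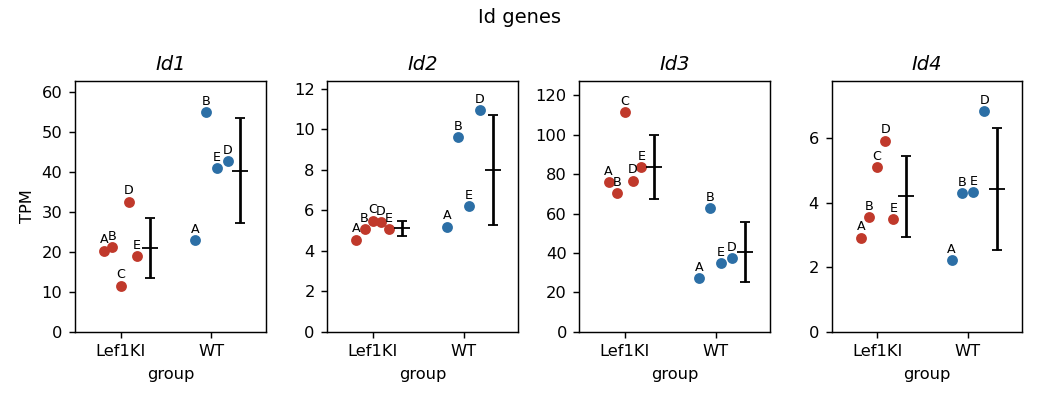
Level of Id1, Id2, Id3 and Id4 in TPM on the vertical axis, by group, with 1 lettered point per library and bars for mean ± SD. Lef1KI libraries lie above all WT libraries for Id3 (70.5 to 111.4 against 27.4 to 62.8 TPM), and 4 of the 5 lie below them for Id1.

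Tgfbi, which encodes a matrix protein named for its induction by TGF-beta (chromosome 13, 56609523 to 56639562, plus strand of mm10), fell. It had 9.45, 7.59, 4.69, 16.4 and 6.74 TPM in the Lef1KI libraries against 44.6, 36.8, 14.7 and 16.1 TPM in the WT ones. The WT libraries were in a higher pair, A and B, and a lower pair, E and D, and Lef1KI D lay above the latter. The means were 8.97 ± 4.48 TPM in Lef1KI against 28.1 ± 15.0 TPM in WT (difference −1.49, SE 0.39, limma adjusted p 0.0399), and the call was lost without Lef1KI B, C or E and without WT A or B. Without Lef1KI C and D together the difference was −1.56 (limma adjusted p 0.069).

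Of the genes that the name pattern takes without a settled role in the pathway, Tgif2-ps2 was called lower. This copy of Tgif2 (chromosome 17, 40115358 to 40116326, plus strand of mm10) was listed at 0 in all 5 Lef1KI libraries and at 3.91, 1.74, 1.3 and 1.89 TPM in WT A, B, E and D (limma adjusted p 0.000776). The mitochondrial gene mt-Co2 was also listed at 0, in Lef1KI C alone, where the other libraries had 43.0 to 168 TPM. Whether the 0 values of Tgif2-ps2 were failed estimates was not tested. Tgif2 itself had 4.13, 6.84, 5.85, 5.87 and 8.05 TPM in the Lef1KI libraries against 4.4, 5.52, 2.87 and 3.23 TPM in the WT ones. The sources used here do not state how reads shared by the copies were assigned, and the difference of Tgif2 was in the other direction and did not pass (difference 0.52, limma adjusted p 0.167). The kinase gene Bmp2k, the focal adhesion adaptor gene Tgfb1i1 and the trafficking gene Tgfbrap1 had differences between −0.09 and 0.46 and did not pass.

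Other genes of these pathways were taken from 5 lists that do not overlap the members. Of 123 genes measured, 26 (21.1%) passed, 24 higher and 2 lower, where 6.73% of all genes were higher and 1.24% lower. Their median difference was 0.26 where all genes had 0.14, and 4 of the 26 are also in the stromal marker list. Whether the others, among them the matrix genes Fbn1, Bgn and Loxl1, came from stromal cells was not tested. Among TGF-beta and activin response genes, 11 of 39 rose and none fell (median 0.48), of which 3 are stromal markers. Those with the smallest adjusted p were the collagen I genes Col1a1 (40.4 ± 17.6 against 4.96 ± 1.22 TPM, difference 2.71) and Col1a2 (difference 2.15) and the collagen crosslinker gene Loxl1 (12.2 ± 3.62 against 2.99 ± 0.43 TPM, difference 1.69). Ctgf, a widely used target gene named after its values were seen, had 24.2 ± 7.01 against 29.8 ± 19.1 TPM (difference −0.06, limma adjusted p 0.944) and did not pass.

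Of 15 BMP response genes, none passed in limma, and the median difference was 0.18. Of them, 8 had an unadjusted p under 0.05, in both directions. Msx1, which was higher, had the smallest adjusted p (difference 0.445, limma adjusted p 0.0502). It passed in 3 of the 9 fits without a library. After median centring none of the 15 genes was higher. The genes Hes1 (169 ± 53.9 against 278 ± 63.3 TPM, centred difference −0.90) and Rasl11b (0.94 ± 0.28 against 2.35 ± 1.31 TPM, centred difference −0.88) were then lower. Among 15 other ligands, traps and co-receptors, 7 rose and 2 fell, where 6.73% of all genes rose and 1.24% fell. The raised ones included the matrix genes Fbn1, which holds latent TGF-beta complexes (13.8 ± 5.86 against 2.63 ± 0.66 TPM, difference 1.96, limma adjusted p 0.00149), Bgn (difference 2.16) and Dcn (difference 2.68), the last of which is a stromal marker. The lowered ones were Lefty1, a Nodal antagonist gene (2.18 ± 0.71 against 4.34 ± 0.72 TPM, difference −0.77, limma adjusted p 0.0291), and Rgma, a BMP co-receptor gene (27.6 ± 3.03 against 43.2 ± 9.49 TPM, difference −0.61, limma adjusted p 0.0389). These passed in 5 and in 3 of the 9 fits without a library. Of 16 genes that activate or process ligands, 2 rose, where 6.73% of all genes rose. These were the procollagen protease enhancer gene Pcolce (difference 1.76) and the integrin gene Itgb3 (difference 0.96, kept in 4 of the 9 fits). Of 43 cytoplasmic and nuclear regulators, 4 rose, where 6.73% of all genes rose, and none fell. They were the zinc finger repressor genes Zeb1 (5.15 ± 2.05 against 1.02 ± 0.32 TPM) and Zeb2 (6.40 ± 2.92 against 2.10 ± 0.28 TPM), the adaptor gene Dab2 (25.5 ± 9.58 against 9.37 ± 1.01 TPM) and the zinc finger gene Zfp521 (1.74 ± 0.72 against 0.51 ± 0.22 TPM), the last of which passed in 4 of the 9 fits without a library and not after median centring (limma adjusted p 0.0705).

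Markers of some other cell types were also higher in the Lef1KI libraries. Lef1KI C held the highest Lef1KI value for 11 of the 12 raised members, Gdf10 being the exception with its highest value in D, and for 548 of the 898 genes raised in the whole table (61%). Of 15 stromal markers 13 rose, their sums did not overlap between the groups, and no stromal or endothelial marker was at 0 in every WT library. Of 5 leukocyte markers, 3 rose without overlap and none fell: Lyz2 (7.96 ± 3.37 against 1.38 ± 1.16 TPM, difference 1.95, limma adjusted p 0.00731), Cd14 (9.20 ± 2.02 against 4.47 ± 0.44 TPM, difference 0.88, limma adjusted p 0.0112) and Coro1a (0.54 ± 0.16 against 0.13 ± 0.10 TPM, limma adjusted p 0.0198). The leukocyte sum overlapped (69.8 to 253 against 115 to 264 TPM) and was carried by Cd68 (93.7 ± 82.1 against 180 ± 60.9 TPM), which did not pass. The sums of smooth muscle and pericyte markers (55.2 to 69.7 against 51.9 to 82.3 TPM), cartilage markers (35.2 to 65.8 against 20.5 to 45.6 TPM), luminal and ciliated markers (925 to 1960 against 924 to 1750 TPM), basal cell markers (17200 to 19200 against 13800 to 20600 TPM) and mitochondrial genes (20000 to 42000 against 23600 to 37400 TPM) overlapped. The sum of nerve and Schwann cell markers was lower in Lef1KI (0.93 to 2.70 against 3.52 to 8.43 TPM). Of its 3 genes only Ngfr passed (1.16 ± 0.70 against 3.41 ± 1.01 TPM, limma adjusted p 0.0305), and Ngfr is also in the basal cell list. Among the luminal and ciliated markers, Elf3 fell (29.3 ± 11.6 against 94.6 ± 51.5 TPM, limma adjusted p 0.0254). Cdh1 of the same list rose (363 ± 20.0 against 270 ± 12.5 TPM, limma adjusted p 0.012). The calls of Ngfr, Elf3 and Cdh1 were kept in 5, 4 and 8 of the 9 fits without a library. Median centring ended that of Cdh1. The part of stromal cells, endothelial cells and leukocytes in the levels of the members was not tested.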

How the data were processed

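Stranded mRNA libraries (TruSeq, per the labels' protocols) were made from 5 Lef1KI and 4 WT pools of sorted cells. The authors deposited log2(TPM + 1) values and used RSEM and mm10, per the submitters' processing notes. No aligner, annotation release or version is given in the sources used here. Reversing the log with a pseudocount of 1 turned 100.0% of the values below 50 TPM into whole hundredths (to within 0.01 hundredths), and libraries summed to 99.6% to 99.84% of the TPM total. From the values, the authors kept genes with a mean of at least 3 SD in 1 group or more (lowest 3.002). TPM holds no read counts, so depth is unknown and errors come from the spread over libraries. Library pairs shared at most 71 equal nonzero values. Column letters are not tied to the labels' replicate numbers, so libraries are named by group and letter, and each is a separate pool, so p-values measure the spread between pools. RNA integrity numbers are given in the labels as above 10, the top of that scale.

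All 13336 genes were fitted with limma 3.58.1 in R 4.3.3 (variance trend, group as the only term, two-sided, Benjamini-Hochberg adjustment over all genes, threshold 0.05), and the steps were tested on simulated data. The members and lists were chosen with earlier results of these data known. Named were all members past the threshold, per role the 2 with the highest mean, and known feedback and target genes. Also named were the type I receptors that the inhibitors block, and up to 3 genes per direction and list. Tgfb3, Fstl3, Grem1, Nog, Acvrl1, Bmpr1b, Bmp1, Tgif2, Zfp521, Ctgf, Msx1, Hes1 and Rasl11b were added after their values were seen. Alternatives were median centring, trimmed-mean scaling (10% at each end), a pseudocount of 0.1 TPM, a mean of at least 1 TPM, no variance trend, sample quality weights, a replicate block and each library left out. Leaving out Lef1KI C and D together was added after the data were seen. Positions are from GENCODE M21 (mm10). The values of 1 member and of 1 listed gene are not reported here.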

Additional observations from a re-analysis of the deposited data

Results flagged for a closer look

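In 4 of the 102 groups of library values looked at, 1 library lay far from the others of its group, where chance alone marks about 1 in 20. Tgfbr3, the betaglycan gene, was lowest in Lef1KI E, at a log2(TPM + 1) of 4.13 where the other Lef1KI libraries had 4.84 to 5.07. Smurf1 was lowest in WT A, at 4.73 where the other WT libraries had 5.07 to 5.11. Skil was lowest in Lef1KI D, at 3.23 where the other Lef1KI libraries had 3.72 to 3.91. The summed leukocyte markers were highest in Lef1KI A, at 7.98 in log2 TPM where the other Lef1KI libraries had 6.13 to 6.5, and Cd68 accounted for 239 TPM of that sum. Of the other leukocyte markers, Lyz2 was lowest among Lef1KI libraries in A, at 4.46 TPM. Cd14, Coro1a and Itgam lay there within the range of the other Lef1KI libraries. Gdf15 was also highest among Lef1KI libraries in A, at 183.6 TPM, and the cause of that value was not tested.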

How the results depend on the processing

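Of 1063 genes past the threshold, 14 were members (12 higher, 2 lower). With sample quality weights 2334 genes passed, 1747 higher and 587 lower, with 20 members (15 higher, 5 lower). With median centring 937 genes passed, 605 higher and 332 lower, with 15 members (10 higher, 5 lower). With the replicate block on the column letter 484 genes passed, with 8 members (7 higher, 1 lower) and 14 of the other pathway genes in place of 26. Without Lef1KI C and D together, chosen after the data were seen, 515 genes passed, with 8 members (7 higher, 1 lower). Both of the last fits lost Bmp4, Gdf11, Chrd, Ltbp1, Id3 and Tgfbi. Leaving out 1 library at a time gave 628 to 1686 genes, 10 to 15 members, 8 to 14 higher, 1 to 3 lower and 17 to 26 other pathway genes. The most genes passed without Lef1KI A and the fewest without WT E (643 without WT B), and the single lower member without Lef1KI B, C or E or WT B was Tgif2-ps2. The causes were not tested, and fewer libraries were used in these fits. Over 17 alternatives, the 41 named members gave 696 values, of which 637 kept direction and side of the threshold, 47 lost it, 12 gained it and 0 reversed. Gdf11 was also lost under trimmed-mean scaling, a pseudocount of 0.1 TPM, no variance trend and quality weights, and Chrd under trimmed-mean scaling. The pseudogene with all Lef1KI values at 0 has no fold. Whether the letters pair the samples is not stated in the labels. Correlations of same-letter deviations over genes were −0.26 (A), 0.02 (B), 0.26 (D) and −0.15 (E). Those of different letters ran from −0.21 to 0.22, and these values cannot settle whether samples were paired. With TPM alone, counting error is unknown, and the 9 libraries limit what could be detected among the 51 other members.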
